A study of Homo sapiens with 12 samples.

Results

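HEK293T cells given an iron salt and then a blocker of lysosomal acidification were compared with untreated cells of the same line, to ask which transcripts still differed after both agents. The comparison used the 3 libraries of cells given ferric ammonium citrate and bafilomycin A1 (FAC+BafA1) and the 3 control libraries, 6 of the 12 libraries in the study. Of 56337 gene entries, 19550 were protein coding in the reference annotation, and the 11380 of these with a mean of at least 1 FPKM in control and in FAC+BafA1 were compared. FPKM is the number of sequenced fragments per kilobase of transcript, scaled for sequencing depth, so that levels can be set side by side between genes. A further 156 protein-coding genes reached 1 FPKM in control alone, 200 in FAC+BafA1 alone, and 7814 in neither.

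Bafilomycin A1 inhibits the vacuolar H+-ATPase, the proton pump that acidifies lysosomes and endosomes. Transferrin-bound iron is released from its carrier in acidic endosomes and ferritin iron is recovered by degradation in lysosomes, so a cell whose lysosomes are not acidic can run short of usable iron. Ferric ammonium citrate supplies iron that enters cells without transferrin. Iron regulatory proteins sense cytosolic iron and bind a small RNA hairpin, the iron-responsive element, which stabilises the mRNA of the transferrin receptor when iron is low and blocks translation of ferritin mRNAs.

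HEK293T is an established line from human embryonic kidney with the large T antigen of SV40, and all libraries came from the wild-type line. FAC+BafA1 cells had 0.1 mg/ml FAC for a preincubation of 24 h and then 10 nM BafA1 for 24 h, and control cells had neither agent (0 mg/ml and 0 nM). Cells with FAC alone had the same FAC preincubation, and cells with BafA1 alone had 10 nM for 24 h; these groups hold 3 libraries each and are used only to set values side by side. The labels do not state the vehicle, nor whether FAC stayed in the medium during BafA1. The kit selects poly(A) RNA and marks strand. The replicates are numbered without a statement that each was its own culture, and a p-value here therefore speaks only of the spread among these libraries, which may be technical.

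Depth could only be estimated roughly, from the steps between low values, at 34.4 to 37.9 M fragments per library. The markers of the line were present: 12 of 14 HEK293 markers were tested, and the other two, PAX2 and LHX1, were under 1 FPKM in FAC+BafA1. The markers summed to 632 to 638 FPKM in control and 835 to 836 in FAC+BafA1. By the test described below, 4 of the 12 were higher (33.3%, against 13.5% of all genes tested) and 4 lower (33.3%, against 14.0%). Among the 3 that share no exon with another gene, 0 were higher and 2 lower. VIM, the intermediate filament vimentin, rose by more than the sum did, at 355 ± 4.75 FPKM in control and 563 ± 2.81 in FAC+BafA1 (mean ± SD, n = 3 here and below). The other markers together fell. HOXA10 and HOXD13, homeobox genes of the posterior body, fell by 0.43 and 0.38 on the log2 scale. Of 8 keratinocyte or HeLa markers, 5 were at 0 in both groups and the 8 summed to at most 0.27 FPKM in control and 0.66 in FAC+BafA1. The 12 blood markers summed to 3.05 to 4.20 FPKM in control and 3.58 to 4.13 in FAC+BafA1 with 4 of them at 0, and the 8 fibroblast markers to 5.25 to 7.52 and 6.06 to 8.77. In bulk RNA, fewer cells of a type and less RNA per cell cannot be told apart.

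The tables of the libraries with and without FAC had been filled differently: 627 entries of any gene type, 32 of them protein coding, were listed at 0 in each of the 6 libraries on one side of that divide while never falling under 1 FPKM on the other. For a value that differs between libraries with and without FAC, the agent and the way the table was filled cannot be told apart, while FAC+BafA1 against FAC does not cross that line. Among the genes tested, 2 had all 6 libraries of one side over 4 times all 6 of the other, and the one with a regular symbol is ZZZ3, described at the end. Genes that share exon bases with another annotated gene can trade reads with it and are uncertain to that extent. Such sharing held for 6081 of the genes tested, 26.3% of which were called, against 28.8% of the 5299 that share none. The genes named here for which it holds are listed with the processing.

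Most genes lay close to control. Changes were estimated as differences in mean log2(FPKM + 1), with limma's moderated test over all 12 libraries and Benjamini-Hochberg adjustment over the 11380 genes, and a gene was called at an adjusted p under 0.05. This scale understates changes of low genes. Called genes numbered 3124, or 27.5% of those tested, 1535 of them higher (13.5%) and 1589 lower (14.0%), but the median size among them was 0.24 on the log2 scale, a 1.18-fold difference, and 2823 of them (90.4%) changed by less than 0.5. Only 48 genes (0.422%) were called with a change of at least 1 on the log2 scale, 37 higher (0.325%) and 11 lower (0.0967%). At 0.5 or more there were 301 (2.64%), of which 208 were higher (1.83%) and 93 lower (0.817%). The 3 values of one group lay wholly above or below the 3 of the other in 4897 genes (43.0%).

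Set side by side with the single agents, which share the control libraries, BafA1 alone gave 8351 called genes (73.4%, with 32.0% higher and 41.4% lower), 540 of them changed by at least 1 on the log2 scale (4.75%; 2.67% higher and 2.07% lower), and FAC alone gave 107 (0.94%, with 0.483% higher and 0.457% lower), 11 of them by at least 1 (0.0967%; 0.0176% higher and 0.0791% lower). The standard deviation of the log2 change over all genes tested was 0.22 for FAC+BafA1, 0.51 for BafA1 and 0.13 for FAC, each against control. FAC+BafA1 against FAC, which shares the FAC+BafA1 libraries, gave 2630 called genes (23.1%, with 11.7% higher and 11.4% lower) and 34 of at least 1 (0.299%; 0.272% higher and 0.0264% lower). FAC+BafA1 against BafA1 gave 7740 (68.0%, with 39.8% higher and 28.2% lower), 250 of them by at least 1 (2.2%; 0.773% higher and 1.42% lower). The remaining difference was thus widespread and small, with a short tail of large changes that led upward.

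**Figure D1:**
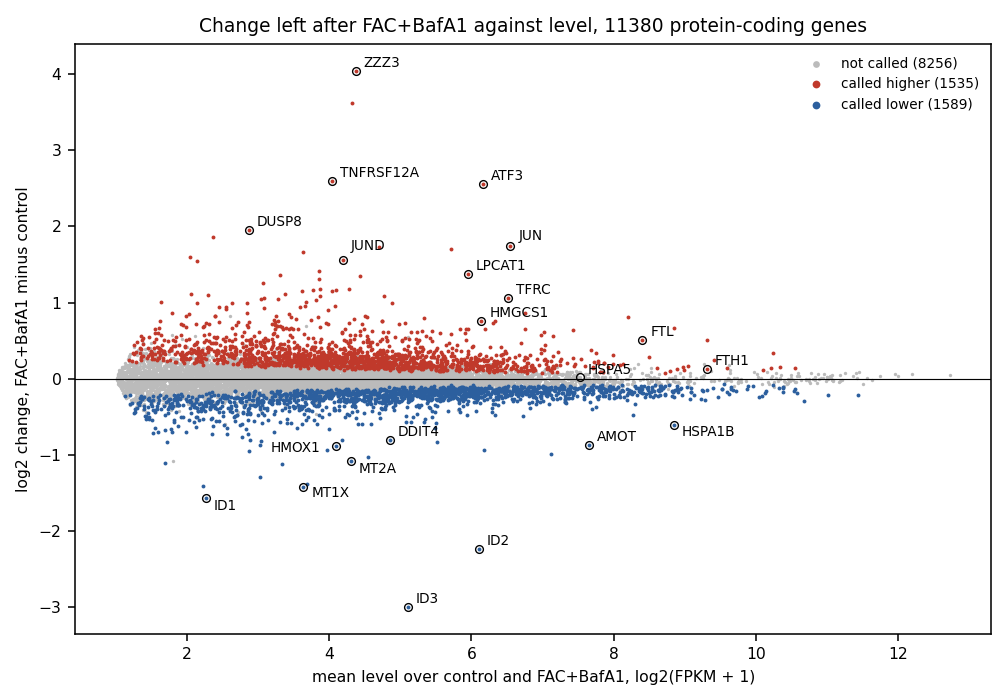
Each point is 1 of the 11380 genes, with its mean level over control and FAC+BafA1 on the horizontal axis and its log2 change from control on the vertical axis; genes called higher are red, genes called lower blue, and some of the named genes are labelled. Most points lie within 0.5 of 0, and the tail above 1 (37 genes) holds more genes than the tail below -1 (11 genes).

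The iron-responsive elements of the 3 mRNAs on which the iron results turn are shown first, because their position tells how each mRNA is handled. They were searched in the GENCODE 44 canonical transcripts on GRCh38. The pattern was a C, any 5 bases, a 6-base loop, and 5 bases that pair with those before the loop. The loop was CAGTG or CAGAG followed by A, C or T, and G was allowed to pair with T. Such a match is held by 252 of the 11380 transcripts (2.21%), so a match alone is a description and not a site. Each is given as DNA, 5′ to 3′ on the strand of the mRNA, with the loop in capitals. FTH1 (chr11:61967574-61967602, minus strand) and FTL (chr19:48965335-48965363, plus strand) carry theirs in the 5′ UTR, where binding blocks translation, and TFRC carries 5 in its 3′ UTR on the minus strand of chromosome 3, where binding protects the mRNA.
FTH1: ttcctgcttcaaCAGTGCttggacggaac
FTL: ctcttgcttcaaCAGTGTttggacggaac
TFRC, chr3:196051029-196051057: atttatcagtgaCAGAGTtcactataaat
TFRC, chr3:196050979-196051007: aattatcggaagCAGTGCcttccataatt
TFRC, chr3:196050575-196050603: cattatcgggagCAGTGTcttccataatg
TFRC, chr3:196050510-196050538: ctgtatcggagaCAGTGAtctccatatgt
TFRC, chr3:196050463-196050491: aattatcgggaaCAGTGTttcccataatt

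TFRC, the transferrin receptor, was above control in FAC+BafA1, unlike in FAC alone. It measured 58.6, 57.2 and 59.1 FPKM in the control libraries, 124, 119 and 124 in FAC+BafA1, 131, 133 and 127 in BafA1 and 9.39, 9.63 and 11.7 in FAC. The FAC+BafA1 libraries were all above the control libraries, and the FAC libraries all below them. The change from control was 1.06 ± 0.06 on the log2 scale (estimate ± SE; limma, adjusted p = 5.00e-08), a 2.10-fold difference of the means, against -2.40 ± 0.06 for FAC alone (adjusted p = 1.60e-11). Between FAC+BafA1 and FAC, which were filled alike, the difference was 3.46 ± 0.06 (adjusted p = 5.02e-13), and between FAC+BafA1 and BafA1 it was -0.09 ± 0.06 (95% interval -0.22 to 0.04; adjusted p = 0.208), which was not called. SLC11A2, the divalent metal transporter that carries iron out of endosomes, rose by 0.25 ± 0.06 (adjusted p = 0.00884) from 14.4 ± 0.961 to 17.4 ± 0.478 FPKM.

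The ferritin genes moved less. FTL, the ferritin light chain, measured 271, 286 and 279 FPKM in control and 389, 397 and 404 in FAC+BafA1, so that the groups did not overlap, and rose by 0.51 ± 0.04 (adjusted p = 8.98e-07). FTH1, the heavy chain with the iron-oxidising activity, rose by 0.12 ± 0.04 (adjusted p = 0.0226), a call that was lost without control replicate 3 (adjusted p = 0.0822), FAC+BafA1 replicate 1 (0.0721) or FAC+BafA1 replicate 2 (0.0827), and without the intensity trend (0.0592). NCOA4, the receptor that brings ferritin to the lysosome, stood at 58.8 ± 0.814 and 60.99 ± 0.942 FPKM, a difference of 0.05 ± 0.03 (adjusted p = 0.193).

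HMOX1, heme oxygenase, which frees iron from heme, ended below control, opposite to its direction with FAC alone. It measured 21.3, 22.6 and 19.7 FPKM in control, 11.7, 10.2 and 11.3 in FAC+BafA1, 44.2, 36.6 and 39.9 in FAC and 8.13, 7.93 and 7.86 in BafA1. Its change from control was -0.88 ± 0.07 with both agents (adjusted p = 1.19e-06), 0.89 ± 0.07 with FAC (adjusted p = 6.37e-06) and -1.31 ± 0.07 with BafA1 (adjusted p = 1.77e-09), and FAC+BafA1 lay 1.77 below FAC. In the list of iron-handling genes, 24 of 32 were tested, and 8 were called higher (33.3%, against 13.5% of all genes) and 3 lower (12.5%, against 14.0%). The median change was 0.05 against 0.0013 over all genes, and without FAC+BafA1 replicate 2 the higher count was 5. The lower count was 1 without control replicate 1, control replicate 2, FAC+BafA1 replicate 1 or FAC+BafA1 replicate 2. The list did not move one way: PCBP2, an iron chaperone, rose by 0.13 ± 0.03 (adjusted p = 0.00573), whereas the iron sensors ACO1, IREB2 and FBXL5 changed by -0.07, -0.07 and -0.10 without a call.

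**Figure D2:**
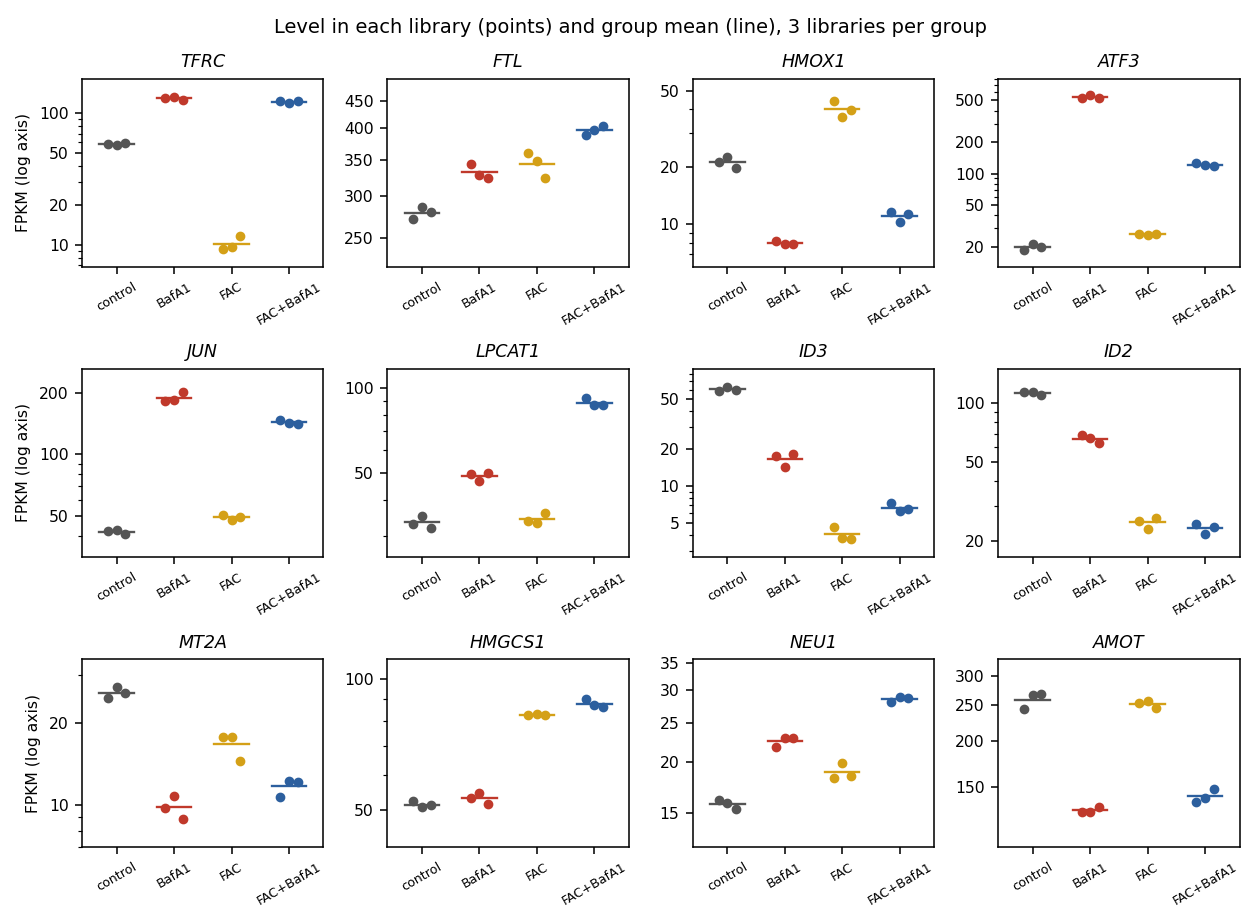
Each panel shows 1 gene and each point 1 library, with FPKM on a vertical axis of its own and the 4 groups along the horizontal axis; the short lines are group means. TFRC is high in both groups with BafA1 and low in FAC, HMOX1 is highest in FAC, LPCAT1 is highest with both agents, and HMGCS1 is high in both groups with FAC.

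Large increases remained in immediate early genes, which growth factor and stress kinases switch on within minutes without new protein synthesis. Of 31 such genes 18 were tested, 13 rose (72.2%, against 13.5% of all genes), and 1 fell (5.56%), with a median change of 0.44. ATF3, a stress-induced transcription factor of the ATF/CREB family, measured 18.4, 21.4 and 19.7 FPKM in control and 126, 121 and 119 in FAC+BafA1. That is a 6.14-fold difference (2.56 ± 0.05, adjusted p = 7.09e-13), and the groups were far apart, yet the BafA1 libraries were higher again at 522, 565 and 531. JUN, the core of the AP-1 transcription factor, rose from 42.1, 42.6 and 41.1 to 147, 142 and 141 FPKM (1.75 ± 0.04, adjusted p = 5.14e-12), and its BafA1 mean was 188 ± 10.4.

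JUND, another AP-1 partner, was not called lower with both agents than with BafA1. It measured 9.16, 7.89 and 7.68 FPKM in control, 28.8, 26.3 and 23.7 in FAC+BafA1 and 22.3, 20.7 and 29.3 in BafA1. It rose by 1.56 ± 0.11 from control (adjusted p = 3.27e-07), and FAC+BafA1 differed from BafA1 by 0.13 ± 0.11 (95% interval -0.10 to 0.36; adjusted p = 0.303). KLF6, a zinc finger transcription factor, rose by 1.18 ± 0.05 and DUSP1, the phosphatase that switches off stress MAP kinases, by 1.16 ± 0.06 (adjusted p = 6.64e-09 and 8.52e-09). IER5 fell by 0.31 (adjusted p = 0.00258), and MYC, the growth transcription factor, changed by 0.06 ± 0.05 without a call (adjusted p = 0.375) although its BafA1 mean was 117 FPKM against 51.9 in control.

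The other 13 immediate early genes were not tested, because 8 reached 1 FPKM in FAC+BafA1 but not in control and 5 in neither. EGR1, a zinc finger factor and one of the 8, was the clearest: 0.49, 0.5 and 0.47 FPKM in control, 15.1, 14.6 and 11.6 in FAC+BafA1 and 188 on average in BafA1. The 3 groups did not overlap, and since EGR1 reached the minimum only where it was high, no test is given. FOS, the AP-1 partner of JUN, went from 0.307 to 1.92 FPKM with a BafA1 mean of 30.8, and ARC, a gene of synaptic activity, from 0.277 to 2.07 with 22.9. FOS and ARC were chosen for mention after their values were seen.

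The list of MAP kinase feedback genes, most of whose tested members code for its inhibitors, was also raised: 11 of 23 were tested, 8 rose (72.7%, against 13.5% of all genes) and none fell, also at an unadjusted p under 0.05, with a median change of 0.53. Most members are at low levels, and with a minimum of 5 FPKM in each group 1 of 3 rose and the median was 0.04. DUSP8, a phosphatase of stress kinases, rose from 1.79, 1.96 and 2.27 to 11.9, 8.86 and 11.2 FPKM (1.95 ± 0.11, adjusted p = 3.89e-08). TNFRSF12A, the receptor of the cytokine TWEAK and not an inhibitor of MAP kinases, had the largest fold of the list at 7.39-fold, from 3.68 ± 0.656 to 27.2 ± 1.59 FPKM (2.60 ± 0.09, adjusted p = 4.64e-10). SPRED2, an inhibitor of RAS signalling, rose by 1.06 ± 0.07 and DUSP5, a phosphatase of ERK, by 1.01 ± 0.08, while SPRY1, a receptor kinase antagonist, changed by -0.03 ± 0.09 (adjusted p = 0.865).

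Promoters are shown for the 2 of these genes whose window, the 250 bases before the RefSeq start (GRCh38.p14), does not overlap another annotation of the same gene. The motif searched was TGACGTCA, TGACATCA or TGANTCA on both strands, the binding letters of CREB/ATF and AP-1 factors, and 10.3% of 35116 promoter windows of the same length hold a match. DUSP8 (chr11:1572272-1572521, minus strand) has a pair of TGACGTCA matches that begin 118 and 74 bases before the start, and JUND (chr19:18281623-18281872, minus strand) has 1 that begins 200 bases before it. In the corresponding windows of JUN, ATF3 and KLF6 a TGACATCA begins 67, 123 and 172 bases before the start, while the window of a second annotated ATF3 start holds no match. For the CArG box, the serum response element, only 1 exact sequence was searched, which is held by 0.0313% of the windows. That sequence begins 105 bases before the start of EGR1 and is not in the window of JUND. Other forms of the box were not searched, so whether either window holds them was not tested. The matches are in capitals.
DUSP8: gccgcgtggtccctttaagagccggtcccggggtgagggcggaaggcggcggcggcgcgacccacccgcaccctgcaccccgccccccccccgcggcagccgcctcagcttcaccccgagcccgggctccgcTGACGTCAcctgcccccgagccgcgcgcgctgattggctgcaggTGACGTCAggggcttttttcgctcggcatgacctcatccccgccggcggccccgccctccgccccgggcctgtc
JUND: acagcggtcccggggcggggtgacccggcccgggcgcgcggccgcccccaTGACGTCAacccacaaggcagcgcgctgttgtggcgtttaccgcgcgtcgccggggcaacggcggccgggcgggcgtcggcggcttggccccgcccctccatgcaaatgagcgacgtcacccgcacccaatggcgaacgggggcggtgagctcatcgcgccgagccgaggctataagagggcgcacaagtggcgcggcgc

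At the other end, targets of bone morphogenetic protein (BMP) signalling held the 3 largest decreases among the genes tested, those of ID3, ID2 and ID1. BMP receptors phosphorylate SMAD factors, which drive the ID genes, whose products block DNA binding by other factors, and their own inhibitors SMAD6 and SMAD7. Of 13 tested genes 10 fell (76.9%, against 14.0% of all genes) and none rose, also at an unadjusted p under 0.05, with a median change of -0.60. With a minimum of 5 FPKM in each group 4 of 7 fell and the median was -0.22. ID3 measured 58.04, 63.5 and 59.6 FPKM in control, 7.31, 6.31 and 6.45 in FAC+BafA1, 4.70, 3.79 and 3.70 in FAC and 17.3, 14.3 and 18.1 in BafA1. Every library of the 3 treated groups was below every control library, and the 2 groups with FAC were lowest. The change was -2.998 ± 0.09 with both agents (adjusted p = 1.15e-10), -3.60 ± 0.09 with FAC and -1.81 ± 0.09 with BafA1 (adjusted p = 1.60e-11 and 1.00e-09).

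ID2 stood at 113 ± 1.89 FPKM in control, 23.1 ± 1.41 in FAC+BafA1 and 24.8 ± 1.63 in FAC, a change of -2.24 ± 0.05 with both agents (adjusted p = 7.33e-12). ID1 fell by 1.57 (adjusted p = 8.20e-07), SMAD9 by 0.72 (adjusted p = 9.69e-07) and BAMBI, a decoy receptor, by 0.81 (adjusted p = 6.18e-06). SMAD6 fell by 1.41 (adjusted p = 2.28e-06), from 6.11, 5.41 and 5.81 to 1.55, 1.06 and 2.15 FPKM, with FAC+BafA1 libraries spread more widely than those of control. FAC alone had 10 of the 13 called lower and a median of -0.72, and BafA1 alone 9 lower and 3 higher with a median of -0.64. Of all genes, FAC alone called 0.457% lower, and BafA1 alone 41.4% lower and 32.0% higher. MSX1 and MSX2, homeobox genes also driven by BMP, changed by 0.10 ± 0.07 and 0.05 ± 0.07 without a call. Since these values differ between libraries with and without FAC, the agent and the filling of the tables cannot be told apart. FAC+BafA1 against FAC gave 5 of the 13 higher and 1 lower, where 11.7% of all genes were higher and 11.4% lower.

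MT2A and MT1X, metallothioneins, which are small proteins that bind zinc and copper, were below control; they were the metallothioneins tested of 7 listed, the other 5 being under 1 FPKM in at least 1 group. In the whole list of metallothioneins and zinc genes 9 of 15 were tested, with 3 higher (33.3%, against 13.5% of all genes) and 4 lower (44.4%, against 14.0%). Its median of -0.09 changed sign between settings, from -0.43 among genes that share no exon to 0.07 with a minimum of 5 FPKM. MT2A measured 24.7, 27.1 and 25.7 FPKM in control, 10.7, 12.3 and 12.2 in FAC+BafA1, 17.8, 17.8 and 14.4 in FAC and 9.74, 10.7 and 8.85 in BafA1. All FAC+BafA1 libraries were below all control and FAC libraries, and their change from control was -1.08 ± 0.09 (adjusted p = 1.22e-06). MT1X fell by 1.42 (adjusted p = 4.94e-08), from 17.1 ± 1.01 to 5.76 ± 0.487 FPKM, with 11.5 ± 0.244 in FAC and 5.75 ± 0.773 in BafA1; metallothioneins are close copies of each other, so reads may have been split between them. SLC30A1, the zinc exporter of the plasma membrane, fell by 0.77 (adjusted p = 4.03e-06), with 7.63, 5.43, 5.73 and 4.07 FPKM in control, FAC, BafA1 and FAC+BafA1.

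SLC39A10, a zinc importer, went the other way: 24.5, 23.7 and 24.6 FPKM in control, 40.3, 40.5 and 41.8 in FAC+BafA1, 36.3, 36.02 and 35.9 in FAC and 14.2, 14.4 and 15.1 in BafA1. It rose by 0.73 ± 0.04 with both agents (adjusted p = 1.62e-08) and fell by 0.70 with BafA1 alone (adjusted p = 1.51e-09). MTF1, the zinc sensor that drives metallothioneins, changed by -0.09 ± 0.10 (adjusted p = 0.538), which was not called.

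MTF1 binds the metal response element, searched here as TGCACNC or TGCGCNC on both strands; 24.8% of the 35116 promoter windows hold a match and 1.58% hold 3 or more. The window of SLC30A1, which is not shown, holds only 1 match. The 250 bases before the start of MT2A (chr16:56608334-56608583, plus strand) hold 7 matches and those of MT1X (chr16:56682220-56682469, plus strand) hold 4, all in capitals and from RefSeq.
MT2A: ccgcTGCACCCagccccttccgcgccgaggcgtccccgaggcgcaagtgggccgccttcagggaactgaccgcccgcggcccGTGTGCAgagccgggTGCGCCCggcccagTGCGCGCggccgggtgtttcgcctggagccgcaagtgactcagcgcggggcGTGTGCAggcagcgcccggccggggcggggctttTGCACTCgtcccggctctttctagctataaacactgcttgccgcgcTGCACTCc
MT1X: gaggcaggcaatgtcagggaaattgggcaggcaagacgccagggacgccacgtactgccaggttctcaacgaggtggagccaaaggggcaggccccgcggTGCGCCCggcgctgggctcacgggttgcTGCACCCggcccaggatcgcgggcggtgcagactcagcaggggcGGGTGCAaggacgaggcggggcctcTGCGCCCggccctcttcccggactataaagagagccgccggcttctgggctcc

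Genes of cholesterol synthesis and uptake, which SREBP factors drive when sterol is scarce in the endoplasmic reticulum, were raised: 27 of 31 were tested, 18 rose (66.7%, against 13.5% of all genes) and none fell, also at an unadjusted p under 0.05, with a median of 0.22. FAC alone gave 17 higher, none lower (also at an unadjusted p under 0.05) and a median of 0.29, and BafA1 alone 2 higher, 19 lower and a median of -0.34, each against the same control libraries. Of all genes, FAC alone called 0.483% higher, and BafA1 alone 32.0% higher and 41.4% lower. HMGCS1, which makes the HMG-CoA of the pathway, measured 52.3, 50.6 and 51.1 FPKM in control, 82.7, 82.9 and 82.6 in FAC and 89.8, 87.1 and 85.95 in FAC+BafA1. Both groups with FAC were above control without overlap, and the difference between them, 0.08 ± 0.03, was not called (adjusted p = 0.0731). The sterol element letters TCACNCCAC, searched on both strands and held by 0.883% of the promoter windows, are not in those of HMGCS1, INSIG1 or TFRC. Other forms of the element and bases further upstream were not searched, so whether these genes have a sterol element was not tested.

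INSIG1, the sterol sensor that retains SREBP, measured 60.7, 56.3 and 60.1 FPKM in control, 105, 106 and 108 in FAC, 44.6, 47.2 and 46.5 in BafA1 and 100.2, 100.5 and 101 in FAC+BafA1. Both groups with FAC were above all control libraries, and BafA1 alone was below them. INSIG1 rose by 0.76 ± 0.03 from control with both agents (adjusted p = 5.99e-09), and HMGCS1 rose by 0.76 ± 0.03 (adjusted p = 1.86e-09).

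In fatty acid synthesis, 12 of 21 tested genes rose (57.1%, against 13.5% of all genes) and 2 fell (9.52%, against 14.0%), with a median of 0.25. LPIN1, the phosphatase that makes diacylglycerol, rose from 5.32 ± 0.515 to 12.1 ± 1.28 FPKM (1.05 ± 0.09, adjusted p = 2.79e-06), and the elongases ELOVL6 and ELOVL5 rose by 0.51 ± 0.04 and 0.32 ± 0.03 (adjusted p = 1.73e-06 and 3.83e-06). ACSL3, which activates fatty acids for lipid droplets, fell by 0.44 (adjusted p = 2.84e-05), with 34.3 FPKM in BafA1, 47.6 in FAC+BafA1 and 64.9 in control. LPCAT1, an acyltransferase that remodels phosphatidylcholine and was in none of the lists, exceeded both single agents: 32.96, 35.3 and 31.9 FPKM in control, 33.7, 33.2 and 36.1 in FAC, 49.7, 46.8 and 50.1 in BafA1 and 91.8, 86.7 and 86.8 in FAC+BafA1. It rose by 1.38 ± 0.05 from control (adjusted p = 2.73e-10), by 1.34 ± 0.05 from FAC and by 0.84 ± 0.05 from BafA1 (adjusted p = 5.67e-10 and 4.44e-09).

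**Figure D3:**
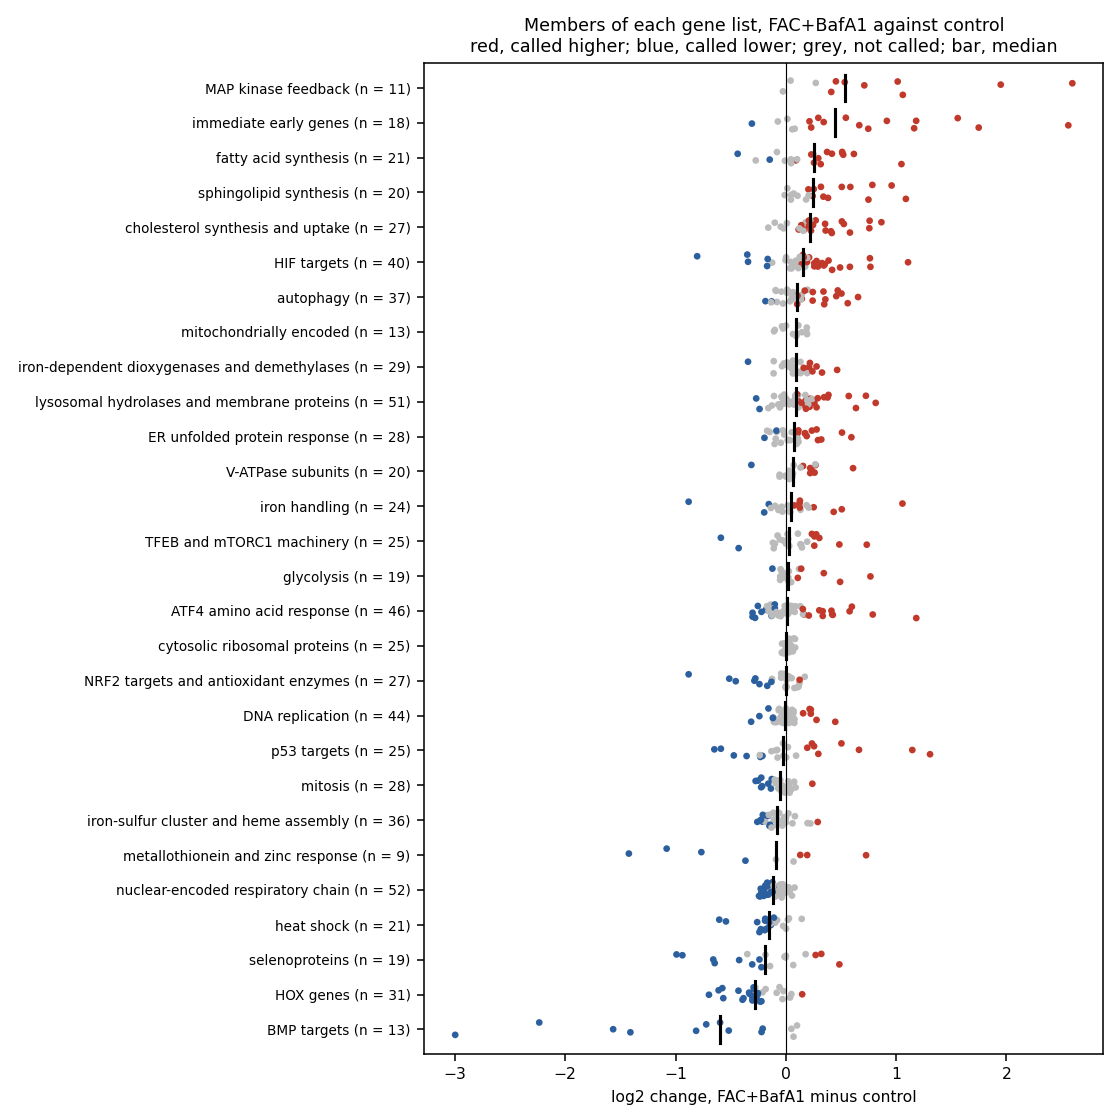
Each point is 1 tested member of a gene list, placed by its log2 change in FAC+BafA1 from control, red when called higher, blue when called lower and grey when not called; the bars are medians and the lists are ordered by them. MAP kinase feedback and immediate early genes lead on the side of increases (medians 0.53 and 0.44) and BMP targets on the side of decreases (median -0.60), while the respiratory chain forms a tight cloud just under 0.

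Lysosomal genes, many of them under the transcription factors TFEB and TFE3, were partly raised. Of 51 tested hydrolases and membrane proteins, 18 rose (35.3%, against 13.5% of all genes) and 2 fell (3.92%, against 14.0%), with a median of 0.09. Without FAC+BafA1 replicate 2 the number that rose was 11. BafA1 alone gave 7 higher and 34 lower with a median of -0.26, where 32.0% of all genes were higher and 41.4% lower. NEU1, the lysosomal sialidase, measured 16.1, 15.9 and 15.3 FPKM in control and 28.1, 28.8 and 28.7 in FAC+BafA1, without overlap, and rose by 0.81 ± 0.04 (adjusted p = 2.97e-08). GLA, the galactosidase missing in Fabry disease, rose by 0.64 ± 0.04 (adjusted p = 1.27e-07). CD63, a membrane protein of late endosomes, rose by 0.38 ± 0.03 against control but fell by 0.47 with BafA1 alone (adjusted p = 1.18e-06 and 1.04e-08).

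The proton pump that BafA1 inhibits has 20 tested subunit genes, of which 7 rose (35.0%, against 13.5% of all genes) and 1 fell (5.0%, against 14.0%), with a median of 0.07. Without FAC+BafA1 replicate 2 only 4 rose. ATP6V0A1, a subunit of the membrane sector, was the one with the smallest adjusted p: 26.9, 25.2 and 29.5 FPKM in control and 41.1, 43.2 and 41.4 in FAC+BafA1 (0.61 ± 0.05, adjusted p = 1.66e-06). ATP6AP1, an accessory subunit, and ATP6V0B rose by 0.22 ± 0.03 and 0.26 ± 0.04, whereas with BafA1 alone both were below control (-0.29 and -0.28).

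Among autophagy genes, 14 of 37 rose (37.8%, against 13.5% of all genes) and 2 fell (5.41%, against 14.0%), with a median of 0.11. Only 9 rose without control replicate 2, FAC+BafA1 replicate 2 or FAC+BafA1 replicate 3. SQSTM1, the cargo receptor p62, rose from 46.6, 47.1 and 45.4 to 74.8, 72.9 and 72.96 FPKM (0.65 ± 0.04, adjusted p = 3.44e-08), with a BafA1 mean of 72.96 ± 0.259. MAP1LC3B, the LC3 protein of autophagosome membranes, rose by 0.34 ± 0.03 and OPTN, another receptor, by 0.56 ± 0.09 (adjusted p = 2.79e-06 and 0.000553). The machinery of TFEB and mTORC1 was mixed, with 7 of 25 higher (28.0%, against 13.5% of all genes) and 2 lower (8.0%, against 14.0%) and a median of 0.03. FLCN and FNIP1, partners that control the Rag GTPases, rose by 0.73 ± 0.07 and 0.49 ± 0.06 (limma adjusted p = 8.45e-06 and 0.000122). The sestrins SESN1 and SESN3, which restrain mTORC1, fell by 0.59 and 0.43 (limma adjusted p = 6.14e-05 and 0.000391).

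The amino acid response under ATF4 was broad with BafA1 alone (42 of 46 genes higher and 1 lower, median 1.04, where 32.0% of all genes were higher and 41.4% lower). With both agents its median was near control. There 13 members rose (28.3%, against 13.5% of all genes) and 9 fell (19.6%, against 14.0%), the median being 0.01. Without control replicate 1, control replicate 2 or FAC+BafA1 replicate 2, 5 were lower. ASNS, asparagine synthetase, measured 151, 142 and 139 FPKM in control, 426, 425 and 418 in BafA1 and 129, 128 and 123 in FAC+BafA1, which lay below control (-0.18 ± 0.03, adjusted p = 0.0012). Among the members that rose was PPP1R15A, the phosphatase subunit that restores translation. It measured 7.90, 7.86 and 8.12 FPKM in control and 20.6, 19.3 and 18.2 in FAC+BafA1 (1.18 ± 0.06, limma adjusted p = 2.43e-08). The amino acid transporters SLC38A1, SLC3A2 and SLC7A1 rose by 0.60 ± 0.04, 0.58 ± 0.03 and 0.43 ± 0.04.

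Genes of the unfolded protein response showed a small remainder, with 11 of 28 higher (39.3%, against 13.5% of all genes) and 2 lower (7.14%, against 14.0%) and a median of 0.08. BafA1 alone gave 23 higher, 2 lower and a median of 0.84, where 32.0% of all genes were higher and 41.4% lower. XBP1, the factor spliced by IRE1, rose by 0.28 ± 0.03, DNAJB9, a co-chaperone, by 0.51 ± 0.07, SYVN1, the ubiquitin ligase of ER-associated degradation, by 0.59 ± 0.09 and SELENOS, of the same machinery, by 0.32 ± 0.04 (adjusted p = 5.29e-06, 9.38e-05, 0.000381 and 0.000178). HSPA5, the chaperone BiP, was at control level: 186, 183 and 179.9 FPKM in control, 182, 186 and 187 in FAC+BafA1 and 611, 629.9 and 579 in BafA1. The difference from control was 0.02 ± 0.03 (95% interval -0.05 to 0.08; adjusted p = 0.743).

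Cytosolic and mitochondrial chaperones of the heat shock list remained below control, with 13 of 21 lower (61.9%, against 14.0% of all genes), none higher (1 at an unadjusted p under 0.05) and a median of -0.15. HSPA1B, an inducible HSP70, measured 504, 576 and 579 FPKM in control, 346, 356 and 387 in FAC+BafA1 and 63.7, 62.98 and 59.9 in BafA1. The FAC+BafA1 libraries lay between these groups without touching either, at -0.60 ± 0.06 from control (adjusted p = 6.96e-06). HSPA1B and its neighbour HSPA1A, which changed by -0.54 ± 0.13, are near-identical copies, so the split of reads between them is uncertain. The other three with the smallest adjusted p fell little: HSPD1, the mitochondrial chaperonin, by 0.24, HSP90AB1 by 0.19 and the co-chaperone STIP1 by 0.19, each ± 0.02 SE (adjusted p = 1.41e-05, 5.31e-05 and 7.94e-05).

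Targets of the hypoxia-inducible factors, which iron-dependent prolyl hydroxylases mark for destruction, were still partly raised: 40 of 44 were tested, 19 rose (47.5%, against 13.5% of all genes) and 5 fell (12.5%, against 14.0%), with a median of 0.16. BafA1 alone gave 28 higher and 7 lower with a median of 0.44, where 32.0% of all genes were higher and 41.4% lower. FAC alone called none in limma (3 higher and 2 lower at an unadjusted p under 0.05, with a median of -0.01), where it called 0.94% of all genes. BHLHE40, a circadian repressor, measured 5.64, 5.48 and 5.62 FPKM in control and 12.97, 13.2 and 13.4 in FAC+BafA1 (1.11 ± 0.05, adjusted p = 7.25e-09), with 27.9 ± 0.608 in BafA1. NDRG1, a stress protein that also responds to iron loss, rose from 18.6, 17.8 and 20.3 to 34.2, 31.2 and 32.8 FPKM (0.76 ± 0.07, adjusted p = 3.83e-06), VEGFA, the vascular growth factor, by 0.42 ± 0.09 (adjusted p = 0.00349) and SLC2A1, the glucose transporter GLUT1, by 0.49 ± 0.05 (adjusted p = 1.14e-05).

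DDIT4, a target of both HIF and ATF4 that inhibits mTORC1, crossed control. It measured 38.01, 34.5 and 35.1 FPKM in control, 68.96, 75.1 and 71.2 in BafA1, 36.6, 36.3 and 34.7 in FAC and 19.97, 21.4 and 18.9 in FAC+BafA1. BafA1 libraries were all above control and FAC+BafA1 libraries all below, with changes of 0.98 ± 0.05 and -0.80 ± 0.05 (adjusted p = 1.53e-09 and 1.52e-07). The number of HIF targets called lower was 2 without control replicate 1 or FAC+BafA1 replicate 2, and 3 without control replicate 2 or FAC+BafA1 replicate 1. In glycolysis 5 of 19 genes rose (26.3%, against 13.5% of all genes) and 1 fell (5.26%, against 14.0%), with 3 higher without control replicate 3 or any 1 of the FAC+BafA1 libraries. HK2, hexokinase, rose by 0.34 ± 0.04, ENO2 by 0.77 ± 0.11, and LDHB fell by 0.12 (limma adjusted p = 2.03e-05, 0.000217 and 0.00193).

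Iron-dependent dioxygenases and demethylases, enzymes that need ferrous iron at the active site, had 8 of 29 higher (27.6%, against 13.5% of all genes) and 1 lower (3.45%, against 14.0%). Between 3 and 5 rose when any 1 library other than control replicate 3 was left out, 3 of them without control replicate 1. P4HA1 and P4HA2, collagen prolyl hydroxylases, rose by 0.33 ± 0.05 and 0.28 ± 0.06 (adjusted p = 0.000207 and 0.00438).

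Nuclear genes of the mitochondrial respiratory chain, whose complexes carry iron-sulfur clusters and heme, kept small decreases: 25 of 52 were lower (48.1%, against 14.0% of all genes) and none higher, also at an unadjusted p under 0.05, with a median of -0.12. Quantile scaling gave 17 lower and 2 higher with a median of -0.07. BafA1 alone gave 50 lower and a median of -0.51, and FAC alone no call in limma (2 higher and 1 lower at an unadjusted p under 0.05). Of all genes, BafA1 alone called 41.4% lower, and FAC alone called 0.94% in either direction. ATP5MC3, a subunit of the ATP synthase rotor, measured 435, 426 and 406 FPKM in control, 354, 368 and 359 in FAC+BafA1 and 217, 217 and 209 in BafA1 (-0.23 ± 0.03 from control, adjusted p = 0.000163). NDUFB10, of complex I, UQCRC2, of complex III, and ATP5PD, of ATP synthase, fell by 0.24, 0.20 and 0.19 (adjusted p = 0.000235, 0.000252 and 0.000479). None of the 13 mitochondrially encoded genes was called in limma, nor was any at an unadjusted p under 0.05, with changes between -0.11 and 0.19, and their share of all FPKM was 1.57 to 2.18% in control and 1.63 to 2.14% in FAC+BafA1. In iron-sulfur cluster and heme assembly, 9 of 36 were lower and 1 higher, where 14.0% of all genes were lower and 13.5% higher. The lower count was 6 to 8 with any 1 library left out, and 6 without FAC+BafA1 replicate 1 or FAC+BafA1 replicate 3. ISCU, the scaffold on which clusters form, HSPA9, its chaperone, and BOLA3 fell by 0.18, 0.21 and 0.26. ALAS1, the first enzyme of heme synthesis, rose by 0.29 ± 0.04 (adjusted p = 0.00042).

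Targets of NRF2 and antioxidant enzymes had 8 of 27 lower (29.6%, against 14.0% of all genes) and 1 higher (3.7%, against 13.5%), or 3 higher under quantile scaling, with a median of 0.00. Beside HMOX1, GCLM, a subunit of the enzyme that starts glutathione synthesis, fell by 0.51, from 25.4, 21.7 and 23.01 to 17.02, 15.3 and 15.8 FPKM (adjusted p = 6.63e-05). NQO1, a quinone reductase, fell by 0.45 and PRDX1, a peroxiredoxin, by 0.17 (adjusted p = 0.000866 and 0.000741). For both GCLM and PRDX1 the FAC+BafA1 mean lay between those of BafA1 (11.1 and 359 FPKM) and control (23.4 and 818).

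Among the lists of growth, those of cytosolic ribosomal proteins and DNA replication showed little. Cytosolic ribosomal proteins had no call in limma among 25 genes (1 higher at an unadjusted p under 0.05), with changes between -0.04 and 0.08; quantile scaling called 3 of them higher. DNA replication had 6 of 44 higher (13.6%) and 5 lower (11.4%), near the shares of all genes. Without 1 library these counts were 3 to 5 higher and 1 to 4 lower, the fewest higher without control replicate 2 or FAC+BafA1 replicate 3 and the fewest lower without FAC+BafA1 replicate 1, and quantile scaling gave 8 and 2. Mitosis had 8 of 28 lower (28.6%, against 14.0% of all genes) and 1 higher, with 5 lower without control replicate 1. The decreases were led by CDC20, AURKA and CCNB1, regulators of mitotic entry and exit, which fell by 0.25, 0.22 and 0.21 (limma adjusted p = 0.000388, 0.000444 and 0.00155). In the p53 list 8 of 25 were higher (32.0%, against 13.5% of all genes), or 5 without FAC+BafA1 replicate 1. The same list had 6 lower (24.0%, against 14.0%), or 3 without FAC+BafA1 replicate 3, so it did not move one way. CDKN1A, the cell cycle inhibitor p21, and GADD45A, a growth arrest gene, both of which other stress factors also drive, stood out in it: CDKN1A measured 6.95, 7.63 and 7.32 FPKM in control and 18.8, 20.1 and 19.7 in FAC+BafA1 (1.31 ± 0.05, adjusted p = 7.68e-10), and GADD45A rose by 1.15 ± 0.09 (adjusted p = 7.00e-07).

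Among the largest changes outside the lists, ZZZ3, a subunit of a histone acetyltransferase complex, was first but went with the way the tables were filled. It measured 1.26, 1.44 and 1.39 FPKM in control and 2.28, 2.10 and 2.45 in BafA1, against 34.5, 32.2 and 35.9 in FAC and 38.2, 37.5 and 38.4 in FAC+BafA1. Its change of 4.05 ± 0.06 (adjusted p = 5.92e-14) lies between libraries with and without FAC, and against FAC alone it was 0.15 ± 0.06 (adjusted p = 0.0884). Whether FAC or the filling of the tables gave it cannot be told apart.

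GEM, a small GTPase, ANXA1, annexin A1, and SEMA3C, a secreted semaphorin, rose from low levels in control. GEM measured 1.07, 1.34 and 0.74 FPKM in control and 5.71, 5.18 and 4.60 in FAC+BafA1 (1.59 ± 0.10, adjusted p = 1.41e-07). ANXA1 went from 1.32, 1.5 and 0.98 to 5.55, 5.73 and 5.46 (1.54 ± 0.10, adjusted p = 1.77e-07). SEMA3C went from 3.71, 4 and 4.21 to 10.4, 11.1 and 11.1 (1.25 ± 0.06, adjusted p = 5.94e-09). All were higher again with BafA1 alone, with means of 13.8, 8.64 and 16.5 FPKM. Among decreases, MARCHF2, a membrane ubiquitin ligase, fell by 1.29 and FGFR3, a fibroblast growth factor receptor, by 0.93 (adjusted p = 1.14e-05 and 5.15e-08), and both were also lower with FAC alone (-1.07 ± 0.13 and -0.89 ± 0.05). IFIT1, an interferon-induced gene, fell by 0.84 from 3.24 ± 0.252 to 1.38 ± 0.186 FPKM (adjusted p = 5.91e-06), and SAMD11, which shares exon bases with a neighbour, by 1.39 (adjusted p = 1.18e-07).

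Some genes were called in the same direction against control and against FAC, so that they remained apart from both. Ranked by the smaller of the 2 changes, the increases were led by TNFRSF12A, ATF3, C11orf96, RNF145, DUSP8, STX3, JUN and JUND, and the decreases by MAP2K6, ALDH1A2, MT1X, HMOX1, HLX, AMOT, SLC16A9 and PIR. RNF145, a ubiquitin ligase of the endoplasmic reticulum involved in sterol control, measured 23.8, 22.4 and 25.1 FPKM in control, 24.97, 23.8 and 27.02 in FAC, 68.6, 73.4 and 75.9 in BafA1 and 80.3, 80.9 and 77.4 in FAC+BafA1, and changed by 1.70 ± 0.05 from control and 1.62 ± 0.05 from FAC (adjusted p = 1.79e-10 and 4.81e-10). Its level with both agents was the highest of the 4 groups. STX3, a syntaxin of apical membrane fusion, rose by 1.72 ± 0.05 from control and 1.53 ± 0.05 from FAC, and the uncharacterised C11orf96 by 1.86 ± 0.09 and 1.92 ± 0.09.

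MAP2K6, the kinase that activates p38, measured 14.3, 13.8 and 10.6 FPKM in control, 11.7, 13.04 and 12.96 in FAC and 5.74, 4.82 and 5.46 in FAC+BafA1, and changed by -1.12 ± 0.10 from control and -1.10 ± 0.10 from FAC (adjusted p = 2.28e-06 and 3.89e-06). ALDH1A2, which makes retinoic acid, changed by -1.03 ± 0.06 and -1.06 ± 0.06. AMOT, angiomotin, a regulator of the Hippo pathway, was the most abundant of these decreases: 243, 266 and 267 FPKM in control, 253, 257 and 246 in FAC, 128, 128 and 133 in BafA1 and 136, 140.02 and 148 in FAC+BafA1. FAC+BafA1 lay 0.87 below control (adjusted p = 6.64e-09) and only 0.12 above BafA1 (adjusted p = 0.015). HLX, a homeobox factor, changed by -0.95 from control, SLC16A9, of the monocarboxylate transporter family, by -0.81 and PIR, the iron-binding protein pirin, by -0.80 (adjusted p = 1.32e-05, 5.19e-07 and 3.05e-05).

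**Figure D4:**
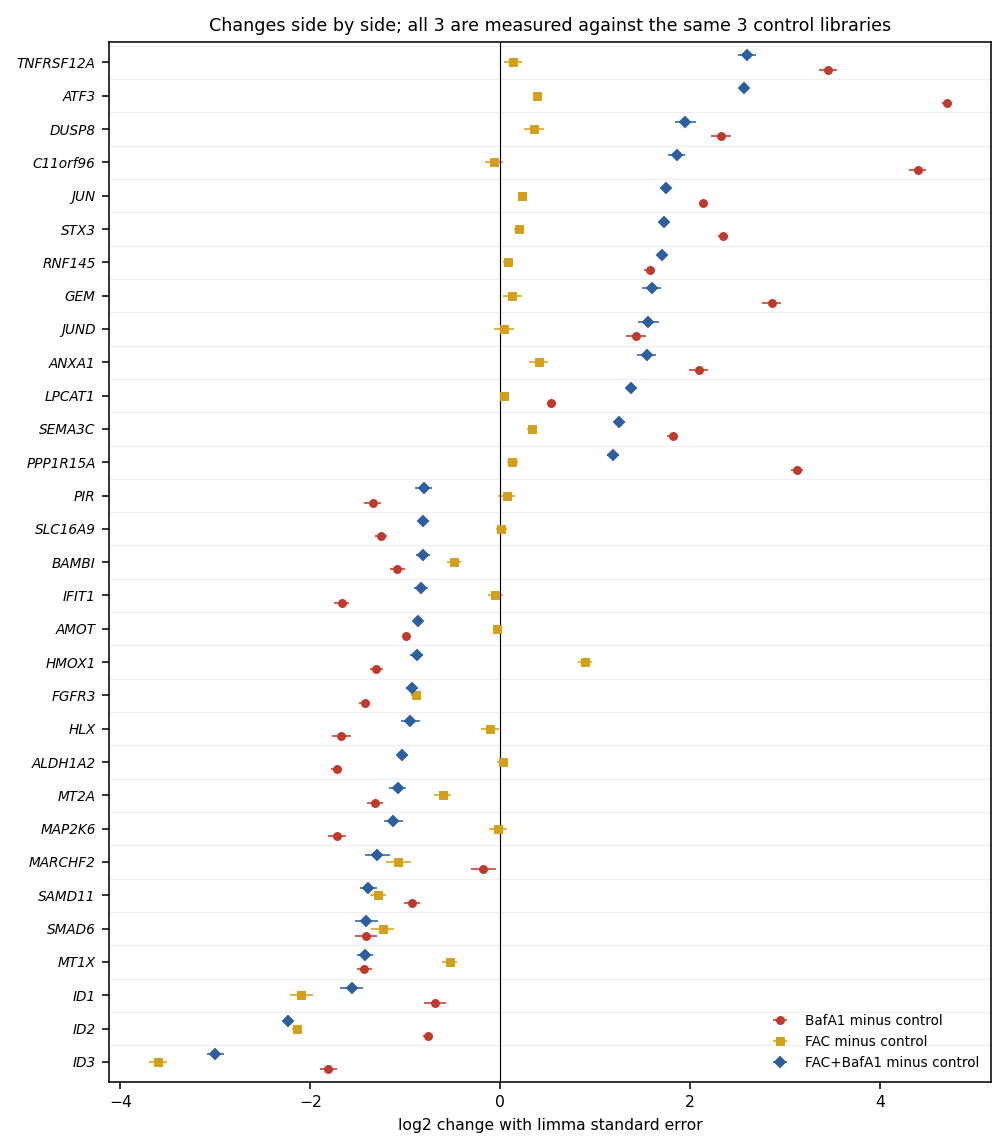
For 31 named genes the points give the log2 change from control with BafA1 alone, FAC alone and FAC+BafA1, with standard errors; the 3 comparisons share the control libraries. ID3, ID2 and SMAD6 sit low with FAC alone and with both agents, while ATF3, TNFRSF12A and C11orf96 with both agents sit between FAC alone and BafA1 alone.

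Genes that missed the minimum level in 1 group also hold differences, and those named next were chosen after their values were seen and are given with no test. HSPB8, a small heat shock protein of chaperone-assisted autophagy, measured 0.35, 0.48 and 0.53 FPKM in control and 8.68, 8.63 and 8.47 in FAC+BafA1, with means of 0.933 in FAC and 12.6 in BafA1. In the other direction IGFBP5, a binding protein of insulin-like growth factor, measured 4.62, 4.08 and 4.20 and 0.88, 0.88 and 0.96 FPKM. IGFBP5 had means of 2.44 in FAC and 0.73 in BafA1. Neither gene overlapped between control and FAC+BafA1. Since both were chosen after their values were seen, that separation adds no support.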

How the data were processed

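Poly(A) RNA of HEK293T cells was sequenced in 12 libraries, 3 per group. The deposited FPKM values were made by the authors; the submitters' processing notes name STAR, RSEM and GRCh38, without versions, and whether strand was used in counting is not given in the sources used here. FPKM keeps no depth of its own, so no count test was run. The table had 56337 distinct entries in 56340 rows, and 56104 matched GENCODE 44, which gave symbols, biotypes and exons. Columns without a sample numbered 0.

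Genes were kept when protein coding with a mean of at least 1 FPKM in control and in FAC+BafA1. Values were fitted as log2(FPKM + 1) with a mean per group over the 12 libraries in limma 3.58.1 (R 4.3.3) with an intensity trend and 8 residual degrees of freedom. The code was tested on simulated data with known changes. Depth was estimated from low values (up to 0.5 FPKM) of genes with 1 transcript of 700.0 to 2000.0 bases and an assumed fragment of 150.0 bases; the share of such values within 0.2 of a whole fragment number was 53.1 to 55.2% in libraries without FAC and 64.4 to 67.8% with FAC, too few to recover reads. That the 4 groups share 1 estimate of the spread is why all libraries entered the fit.

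Members and gene lists were chosen with earlier results of these data known. Genes named are the 10 largest called changes each way with non-overlapping groups and no shared exon, the 3 largest each way with a shared exon, the 8 largest each way called alike against control and against FAC, up to 4 called members of each list by adjusted p, 16 fixed genes, and further list members where a list moved both ways. Some genes selected by that rule are not reported here. Alternatives were other pseudocounts, filters, scalings, gene sets and fits, a replicate block and each library left out. Same-numbered control and FAC+BafA1 libraries did not deviate together (correlations 0.013, 0.0070 and -0.0064), so numbers were not taken as pairs.

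Genes named in the results that share exon bases with another annotated gene are ACSL3, ALDH1A2, AMOT, ASNS, ATP5MC3, ATP5PD, ATP6V0A1, ATP6V0B, BHLHE40, BOLA3, C11orf96, CD63, CDKN1A, ELOVL6, FBXL5, FLCN, FNIP1, FTH1, GLA, HLX, HMGCS1, HOXA10, HSPA1B, HSPA9, HSPD1, ID2, LDHB, LPIN1, MAP1LC3B, MT1X, MYC, NDRG1, NQO1, OPTN, P4HA1, P4HA2, PCBP2, PRDX1, RNF145, SAMD11, SESN1, SESN3, SLC2A1, SQSTM1, STIP1, STX3, SYVN1, TFRC, TNFRSF12A, VEGFA and VIM.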

Additional observations from a re-analysis of the deposited data

How the results depend on the processing

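The 3124 called genes became 3084 with a pseudocount of 0.1, 3080 with median-of-ratios scaling, 3073 with quantile scaling, 2992 with the 2 groups fitted alone and 2988 without the intensity trend. Among the 5299 genes that share no exon, 1614 were called, 796 higher and 818 lower, and 26 changed by at least 1 on the log2 scale. That last count, 48 of 11380, was 146 of 17470 without a filter on low values, 126 of 11569 with the minimum on the mean of all libraries, 77 of 12384 over all gene types, 29 of 8859 with a minimum of 5 FPKM and 68 with a pseudocount of 0.1; these settings change which genes are tested or how low genes weigh. With each library left out in turn the called genes ranged from 2304 to 2776, those higher from 1141 to 1355, those lower from 1163 to 1421, and those past 1 from 46 to 50. With the replicate number as a block 2917 genes were called; only a number is shared between same-numbered libraries, which do not pair.

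Over 17 alternatives and 127 named genes, 24 of 2079 values lost and 3 gained a call, and no gene called in the main fit changed sign. The other 2052 values were counted as unchanged. They include any change of sign in a gene not called in the main fit, which was not counted apart. The 6 genes that lost a call are FTH1, H1-2, H2BC12, KDM5B, PLOD2 and POLE; the gains include RPLP0 under quantile scaling (limma adjusted p = 0.0148). Depth is known only by estimate, so no counting error is given for low values.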

Other observations

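Other gene groups were picked after their values had been seen and are given with no test. Selenoproteins, which carry the amino acid selenocysteine and many of which reduce peroxides, had changes between -0.99 and 0.49 on the log2 scale in FAC+BafA1 from control over the 19 members that passed the minimum of 1 FPKM, with a median of -0.18, which was -0.06 over all 25 without that minimum. GPX1, the cytosolic glutathione peroxidase, measured 183, 194 and 176 FPKM in control, 124, 131 and 115 in FAC, 72.05, 65.8 and 64.7 in BafA1 and 93.0, 88.2 and 94.95 in FAC+BafA1. Its change was -0.99 ± 0.05 (estimate ± SE), and SELENOH, a nucleolar redox protein, changed by -0.94 ± 0.05.

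Sphingolipid synthesis had changes between -0.01 and 1.09 over 20 such members, with a median of 0.25, which was 0.16 among the 12 that share no exon with another gene. The median was 0.13 with BafA1 alone and 0.04 with FAC alone. B4GALT5, which makes lactosylceramide, measured 16.9, 16.1 and 16.3 FPKM in control and 35.3, 36.1 and 36.8 in FAC+BafA1, a difference of 1.09 ± 0.04. For UGCG, which makes glucosylceramide, the difference was 0.96 ± 0.05 and for CERT1, the ceramide transporter, 0.78 ± 0.05.

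HOX genes, which set position along the body axis, had changes between -0.70 and 0.15 over 31 members, with a median of -0.28, and the median was -0.77 with BafA1 alone and -0.07 with FAC alone. HOXA13 measured 9.63, 10.9 and 10.99 FPKM in control and 6.30, 5.94 and 6.04 in FAC+BafA1, a difference of -0.70 ± 0.10. HOX genes overlap each other on the genome and can trade reads.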
